A study of Mus musculus with 9 samples.

Results

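The Myc, Max and Mxd network is a set of 10 genes of basic helix-loop-helix zipper transcription factors: Myc, Mycn, Mycl, Max, Mxd1, Mxd3, Mxd4, Mnt, Mlx and Mga. They were taken by symbol from a table of raw read counts with 55418 gene symbols, and all 10 had a row. The counts came from 66cl4, a mouse triple negative breast cancer line, grown in culture. All 9 libraries were from cells that had been transduced with a hairpin vector and kept in puromycin. The 3 groups of 3 libraries carried a scrambled hairpin (SCR) or either of a pair of hairpins against Eya3, called shEya3_KD1 and shEya3_KD2. Each hairpin group is the same line with 1 hairpin, and the labels name biological replicates without saying how the cultures were separated, so the p-values measure the spread between these libraries. Of the members, 9 passed the filter on low counts and were tested among 15914 genes; Mycl did not.

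Proteins of this family bind DNA as pairs, and Max is the shared partner. A Myc protein paired with Max binds the sequence CACGTG, the E-box, and recruits coactivators, whereas the Mxd proteins and Mnt pair with Max at the same sequence and recruit corepressors. Mlx is a second hub that pairs with some Mxd proteins, with Mnt and with the sugar-sensing protein MondoA, and Mga is a large protein that pairs with Max in a repressive Polycomb-type complex. Myc is known in breast carcinoma as a driver of growth and biosynthesis. Eya3, a transcriptional coactivator and phosphatase, has been described with the phosphatase PP2A as a regulator of Myc protein stability, which counts of messenger RNA do not measure.

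The E-box also occurs in the promoters of some of the members. RefSeq windows of build GRCm38.p6, running from 250 bases before to 50 bases after the gene start, were held for 9 members, all but Myc. The palindrome CACGTG, which reads alike on both strands, was in 4 of these 9 windows, those of Max, Mxd4, Mnt and Mlx, and not in those of Mycn, Mycl, Mxd1, Mxd3 and Mga. Of all 32851 such windows 2349 (7.15%) held it, and of the 10191 tested genes with a window 1163 (11.4%) did. In shEya3_KD2 against SCR, where 45.3% of all genes tested passed, Mnt and Mxd4 rose, Mlx fell and the hub Max did not pass. Of the members without an E-box in the window, Mga passed, Mycn, Mxd1 and Mxd3 did not, and Mycl was not tested. Myc passed but had no window. The 4 promoters are shown because they hold the E-box. They are printed 5′ to 3′ on the gene's strand, up to the gene start and, for Max, 3 bases past it, with the E-box in capitals. A match describes these letters and is not a binding measurement.
Max, chr12:76962246-76962498, minus strand: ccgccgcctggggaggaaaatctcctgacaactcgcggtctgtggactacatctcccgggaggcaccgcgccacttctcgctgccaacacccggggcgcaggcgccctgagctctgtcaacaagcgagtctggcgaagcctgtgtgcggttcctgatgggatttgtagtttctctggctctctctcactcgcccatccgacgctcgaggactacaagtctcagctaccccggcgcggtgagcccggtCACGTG
Mxd4, chr5:34187711-34187960, minus strand: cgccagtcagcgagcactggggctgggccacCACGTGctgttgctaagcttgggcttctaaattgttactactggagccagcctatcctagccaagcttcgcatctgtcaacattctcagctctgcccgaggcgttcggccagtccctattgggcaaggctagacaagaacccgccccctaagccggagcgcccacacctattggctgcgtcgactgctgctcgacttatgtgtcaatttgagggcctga
Mnt, chr11:74830674-74830923, plus strand: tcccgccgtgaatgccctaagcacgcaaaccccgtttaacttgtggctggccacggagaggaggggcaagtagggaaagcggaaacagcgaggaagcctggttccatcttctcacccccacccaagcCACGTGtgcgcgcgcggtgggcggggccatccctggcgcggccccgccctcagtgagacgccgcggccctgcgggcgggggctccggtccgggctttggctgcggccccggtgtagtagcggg
Mlx, chr11:101087040-101087289, plus strand: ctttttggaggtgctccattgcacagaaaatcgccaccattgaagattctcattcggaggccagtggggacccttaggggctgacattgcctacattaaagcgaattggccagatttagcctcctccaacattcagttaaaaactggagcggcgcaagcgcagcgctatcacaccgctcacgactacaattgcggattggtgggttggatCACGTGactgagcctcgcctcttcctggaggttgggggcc
The first base of the match lay 3 bases before the start in Max, 219 in Mxd4, 123 in Mnt and 40 in Mlx.

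Library totals ran from 27758862 to 52691960 counts. Values below are CPM, a gene's counts relative to its library's total after scaling by edgeR's TMM factors. Eya3 was at 72.9 ± 5.56 CPM in SCR, 23.1 ± 1.71 in shEya3_KD1 and 37.5 ± 3.02 in shEya3_KD2 (SD, n = 3 each), which is 31.7% and 51.4% of SCR. Of the mammary carcinoma markers, Epcam and Pgr had 0 counts in all 9 libraries, and Cdh1 was at most 0.197 CPM in a group mean. Vim and Krt8 were abundant, at 2098 and 679 CPM in SCR, 3184 and 1314 in shEya3_KD1 and 2488 and 792 in shEya3_KD2. In the same order of groups, Esr1 was at 7.11, 14.8 and 16 CPM and Erbb2 at 53.6, 65.3 and 67.1. Krt18 was at 0.0277, 0.955 and 2.62 CPM and Krt5 at 0.0211, 0.505 and 0.0332. Krt14, at 1.32, 0.561 and 11.8 CPM, fell in shEya3_KD1 and rose in shEya3_KD2. Markers of other cell types were low: the summed level of 10 macrophage markers was 47.2 to 50.7 CPM in SCR, 27.1 to 31.9 in shEya3_KD1 and 21.6 to 27.6 in shEya3_KD2, with C1qa and C1qc at 0. Lyz2 made up most of the sum in SCR and shEya3_KD1 (mean 38.6, 25.1 and 11.1 CPM in the 3 groups). Cd68, at 9.63, 3.54 and 12.1 CPM, fell in shEya3_KD1 and rose in shEya3_KD2, and C1qb, at 0.0277, 0.267 and 0.372 CPM, rose with both. The sums for fibroblast, endothelial and lymphocyte markers were at most 45.3, 5.12 and 1.40 CPM in any library, and the part of such RNA in the members' values was not tested. In bulk samples fewer cells of a type and less RNA per cell cannot be told apart.

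To compare members with each other, levels were divided by the length of their exons. In SCR, Myc was the most abundant member at 69.4 ± 1.13 CPM per kilobase (SD, n = 3), rank 793 of the 15914 genes tested. The obligate partners followed, Mlx at 26.8 ± 1.19 and Max at 25.5 ± 0.606 CPM per kilobase, and their libraries overlapped, so their order was not resolved. Below them stood Mxd3 at 11.4 ± 0.0742, Mnt at 8.01 ± 0.769, Mga at 3.67 ± 0.293, Mxd4 at 0.912 ± 0.0828, Mxd1 at 0.609 ± 0.0324 and Mycn at 0.272 ± 0.0749 CPM per kilobase. Apart from Mlx and Max, no neighbours in this order overlapped. With the length of the longest transcript in place of all exons, Mlx and Max changed places and no other member did. Mycl, the third Myc paralog, had 0 counts in all 3 SCR and all 3 shEya3_KD2 libraries, which allows at most 0.0213 and 0.0244 CPM, and 3 counts in 1 library of shEya3_KD1 (0.0256 CPM, 95% Poisson interval 0.00527 to 0.0747, counting error only).

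**Figure D1:**
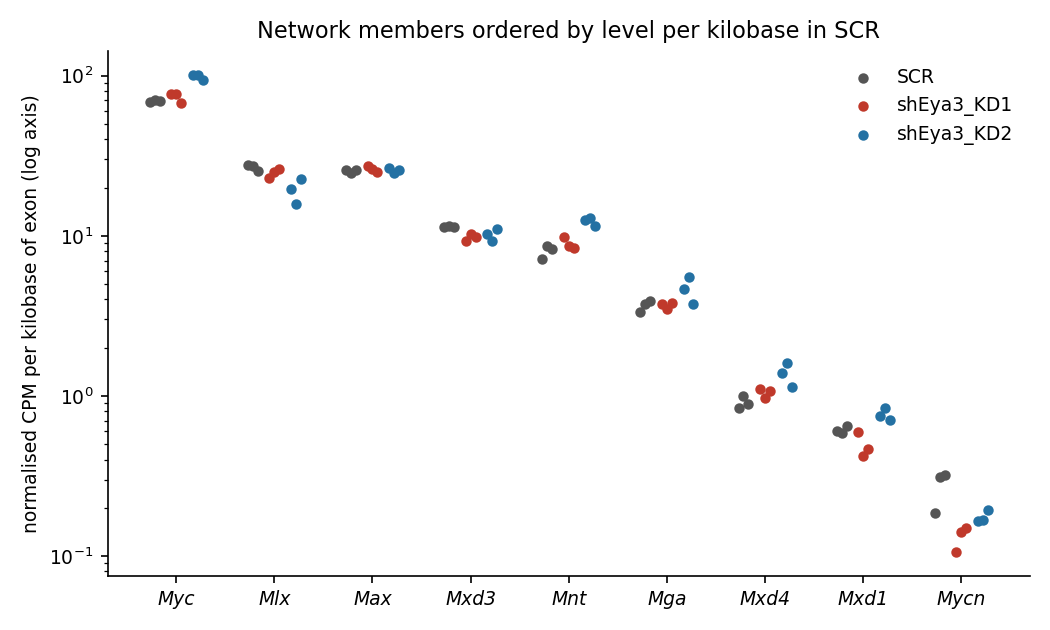
Level per kilobase of exon (log axis, TMM-scaled CPM) of the 9 members with counts in every library, ordered by their mean in SCR; each point is 1 library, colours are groups. Myc stands highest in all 3 groups, at means of 69.4 in SCR, 74.0 in shEya3_KD1 and 98.8 in shEya3_KD2, and Mycn lowest.

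By the length of all exons, the order differed by group at 2 places. In shEya3_KD2 Mlx stood at 19.3 ± 3.51 CPM per kilobase, below Max at 25.6 ± 1.09 without overlap, and Mnt at 12.3 ± 0.782 stood above Mxd3 at 10.2 ± 0.871 without overlap. In shEya3_KD1 Max and Mlx overlapped, as did Mxd3 and Mnt. Myc ranked 476 of all genes tested in shEya3_KD2.

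The E-box activator Myc was higher with 1 of the 2 hairpins. Myc (ENSMUSG00000022346, mm10 chr15:61985391-61990374, plus strand) was at 185, 192 and 189 CPM in the SCR libraries, at 210.1, 209.8 and 183 in shEya3_KD1 and at 274, 276 and 256 in shEya3_KD2. Every shEya3_KD2 library lay above all others, while shEya3_KD1 libraries lay on both sides of SCR. The shEya3_KD2 mean was 142% of SCR, a log2 fold change of 0.51 ± 0.07 (SE; edgeR's quasi-likelihood test, Benjamini-Hochberg adjusted p = 2.97e-05). For shEya3_KD1 it was 0.09 ± 0.07, with a 95% interval of -0.05 to 0.24 (edgeR, adjusted p = 0.282). The difference between the hairpins was 0.42 ± 0.07 (edgeR, adjusted p = 0.000135), and Eya3 itself was lower in shEya3_KD1 than in shEya3_KD2. Leaving out any single library kept Myc in shEya3_KD2 against SCR between 0.49 and 0.54.

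**Figure D2:**
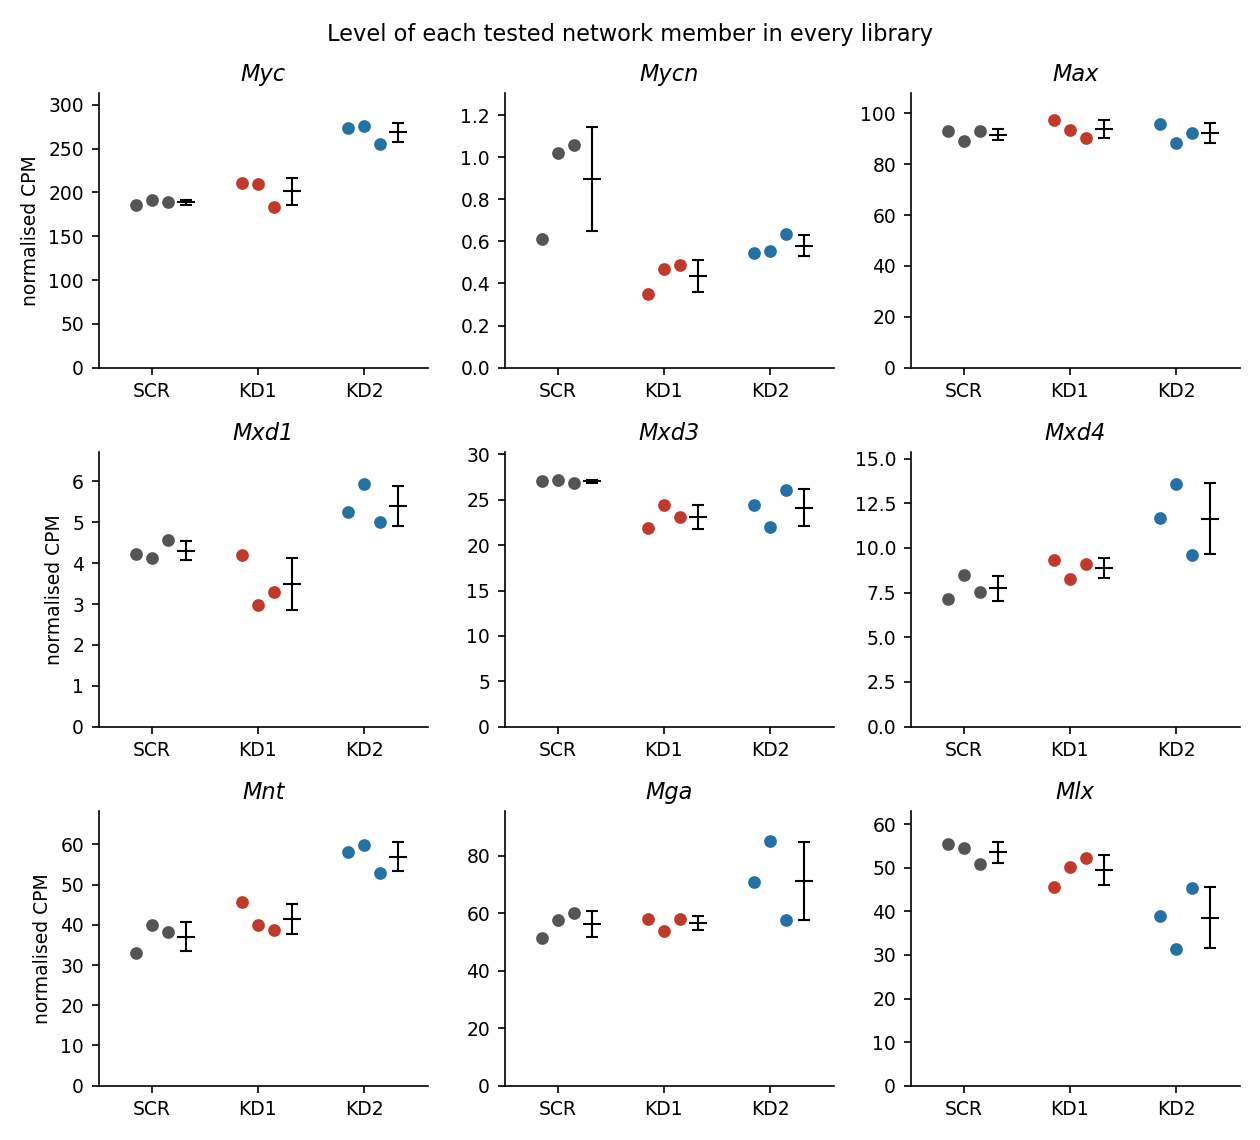
TMM-scaled CPM of each tested member in the 9 libraries (points) with the group mean (line), KD1 and KD2 being shEya3_KD1 and shEya3_KD2; each panel has its own axis from 0. The 3 shEya3_KD2 libraries of Myc sit between 256 and 276 CPM, above all SCR and shEya3_KD1 libraries.

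The Myc paralog expressed in neural progenitors and neuroblastoma, Mycn, was close to the limit of detection. It had 31, 52 and 44 counts in SCR, 14, 20 and 17 in shEya3_KD1 and 28, 15 and 27 in shEya3_KD2, or 0.613, 1.02 and 1.06 CPM, 0.349, 0.468 and 0.490 CPM, and 0.546, 0.554 and 0.637 CPM. All shEya3_KD1 libraries lay below all SCR libraries, and 1 SCR library lay among those of shEya3_KD2. Mycn fell in shEya3_KD1 by 1.03 ± 0.27 on the log2 scale (edgeR, adjusted p = 0.00464). In shEya3_KD2 the difference was -0.62 ± 0.25 (edgeR, adjusted p = 0.0591), and without SCR replicate 1 it was -0.84 (adjusted p = 0.0131). The hairpins differed from each other by 0.41 ± 0.29 (edgeR, adjusted p = 0.262).

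Max, the partner through which Myc, the Mxd proteins, Mnt and Mga reach DNA, did not pass the test in any comparison. It was at 92.9, 89.1 and 92.9 CPM in SCR, 97.5, 93.6 and 90.5 in shEya3_KD1 and 96.0, 88.2 and 92.2 in shEya3_KD2. The 3 groups overlapped throughout. The log2 difference from SCR was 0.03 with a 95% interval of -0.10 to 0.17 in shEya3_KD1 and 0.01 with an interval of -0.12 to 0.14 in shEya3_KD2 (edgeR, adjusted p = 0.664 and 0.931). Its sign in shEya3_KD2 depended on the scaling, with 0.01 under TMM and -0.00437 under RLE size factors. Per kilobase, the ratio of Myc to Max was 2.73 ± 0.106 in SCR, 2.83 ± 0.144 in shEya3_KD1 and 3.86 ± 0.249 in shEya3_KD2 (SD, n = 3). The lowest ratio in shEya3_KD2, 3.67, was above the highest elsewhere, 2.97. The ratio describes the levels given above and was not tested. In SCR replicate 1, Myc and Max were at 68.3 and 25.8 CPM per kilobase of all exons. By the longest transcript they were at 79.3 and 47.9, so the size of the ratio depends on the length used.

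Of the antagonists, Mnt and Mxd4 were higher in shEya3_KD2. Mnt, the most broadly expressed Max-paired repressor, was at 33.1, 39.9 and 38.3 CPM in SCR, 45.6, 40.04 and 38.6 in shEya3_KD1 and 58.2, 59.9 and 52.9 in shEya3_KD2. The shEya3_KD2 libraries stood above all 6 others, and those of shEya3_KD1 overlapped SCR. Mnt rose in shEya3_KD2 by 0.62 ± 0.09 on the log2 scale (edgeR, adjusted p = 3.97e-05), with 0.16 ± 0.09 in shEya3_KD1 (adjusted p = 0.137) and 0.46 ± 0.09 between the hairpins (adjusted p = 0.000434). Mxd4, a Mxd repressor associated with differentiated and quiescent cells, was at 7.14, 8.51 and 7.55 CPM in SCR, 9.31, 8.26 and 9.10 in shEya3_KD1 and 11.7, 13.6 and 9.63 in shEya3_KD2. Again only shEya3_KD2 was clear of SCR. The change in shEya3_KD2 was 0.58 ± 0.12 (edgeR, adjusted p = 0.00103), against 0.20 ± 0.12 in shEya3_KD1 (adjusted p = 0.183). Between the hairpins it was 0.38 ± 0.12 (edgeR, adjusted p = 0.0149), a call lost without shEya3_KD1 replicate 2 (0.33, adjusted p = 0.0641) or shEya3_KD2 replicate 2 (0.27, adjusted p = 0.0540). The antisense gene Gm42846 shares 6.06% of the exon bases of Mxd4, and the strand setting of the counting is not given in these sources.

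The other Mxd genes of the set behaved differently. Mxd3, which is expressed in proliferating cells, was at 27.03, 27.2 and 26.8 CPM in SCR, 21.8, 24.5 and 23.1 in shEya3_KD1 and 24.4, 21.97 and 26.1 in shEya3_KD2. All 6 hairpin libraries lay below all 3 SCR libraries. It fell in shEya3_KD1 by 0.22 ± 0.08 (edgeR, adjusted p = 0.0233), a call lost without SCR replicate 1 (adjusted p = 0.0539) or shEya3_KD1 replicate 1 (adjusted p = 0.0862). In shEya3_KD2 the difference of -0.16 ± 0.08 did not pass (edgeR, adjusted p = 0.102), and without shEya3_KD2 replicate 3 it was -0.22 (adjusted p = 0.0371). The opposite-strand gene Prelid1 shares 4.43% of its exon bases. Mxd1, the founding Mxd gene, induced in differentiation, was at 4.23, 4.13 and 4.57 CPM in SCR, 4.19, 2.97 and 3.28 in shEya3_KD1 and 5.26, 5.94 and 5.00 in shEya3_KD2. It passed between the hairpins, 0.62 ± 0.13 higher in shEya3_KD2 (edgeR, adjusted p = 0.00133), with SCR in between: -0.31 ± 0.13 for shEya3_KD1 and 0.32 ± 0.13 for shEya3_KD2 against SCR (edgeR, adjusted p = 0.0727 and 0.0562). Both of the latter crossed the threshold when libraries were left out, shEya3_KD1 without its replicate 1 (-0.46, adjusted p = 0.0107) and shEya3_KD2 without its replicate 3 (0.37, adjusted p = 0.0401) or without shEya3_KD1 replicate 1 (0.32, adjusted p = 0.0297). The shEya3_KD2 difference also passed with only the compared groups in the fit (0.32, adjusted p = 0.0344) and without the filter on low counts (0.33, adjusted p = 0.0437).

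Summed per kilobase, Mxd1, Mxd3, Mxd4 and Mnt were at 20.9 ± 0.862 CPM per kilobase in SCR, 20.3 ± 0.566 in shEya3_KD1 and 24.6 ± 0.355 in shEya3_KD2 (SD, n = 3). Their makeup differed by group: Mnt was 38.2% ± 2.15 of the sum in SCR, 44.1% ± 2.87 in shEya3_KD1 and 49.96% ± 2.71 in shEya3_KD2, while Mxd3 was 54.5% ± 2.20, 48.3% ± 3.37 and 41.4% ± 3.85. The sum relative to Myc was 0.302 ± 0.00762 in SCR, 0.275 ± 0.0148 in shEya3_KD1 and 0.250 ± 0.00779 in shEya3_KD2. The libraries of the 3 groups did not overlap in this ratio. Mxi1, a Mxd family gene outside the set and named after its values were seen, is in neither the sum nor the ratio. It was at 22.7 ± 0.796 CPM in SCR, 21.7 ± 2.94 in shEya3_KD1 and 24.7 ± 0.559 in shEya3_KD2. Mxi1 passed in no comparison (edgeR, adjusted p = 0.548 and 0.296 against SCR and 0.0949 between the hairpins). These shares were not tested.

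Mlx, the other hub, moved the opposite way. Mlx was at 55.4, 54.4 and 50.9 CPM in SCR, 45.6, 50.3 and 52.3 in shEya3_KD1 and 38.9, 31.3 and 45.4 in shEya3_KD2. The shEya3_KD2 libraries were all below the other 6, though 45.4 in shEya3_KD2 was close to 45.6 in shEya3_KD1. It fell in shEya3_KD2 by 0.47 ± 0.11 on the log2 scale (edgeR, adjusted p = 0.00259) and differed by -0.12 ± 0.11 in shEya3_KD1 (adjusted p = 0.376). The difference between hairpins of -0.35 ± 0.11 (edgeR, adjusted p = 0.0138) was lost without shEya3_KD1 replicate 3 (-0.30, adjusted p = 0.0639). Psmc3ip, on the opposite strand, shares 19.3% of the exon bases of Mlx, so part of its counts may belong to that gene.

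Mga was higher in shEya3_KD2 with a spread that reached SCR. It was at 51.3, 57.5 and 60.1 CPM in SCR, 57.8, 53.8 and 58.1 in shEya3_KD1 and 71.0, 85.0 and 57.6 in shEya3_KD2. Replicate 3 of shEya3_KD2 lay within the SCR range. The log2 fold change in shEya3_KD2 was 0.34 ± 0.11 (edgeR, adjusted p = 0.0287), that between the hairpins 0.33 ± 0.11 (adjusted p = 0.0293), and that in shEya3_KD1 0.01 ± 0.11 (adjusted p = 0.965). The call against SCR was lost without SCR replicate 1 (0.27, adjusted p = 0.106), SCR replicate 2 (0.35, 0.0602), shEya3_KD2 replicate 1 (0.34, 0.0673) or shEya3_KD2 replicate 2 (0.19, 0.0860). The call between hairpins was lost without any single shEya3_KD1 library or without shEya3_KD2 replicate 1 or 2 (adjusted p 0.0575 to 0.0911). With only the compared groups in the fit neither passed (edgeR, adjusted p = 0.0596 against SCR and 0.0642 between hairpins).

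**Figure D3:**
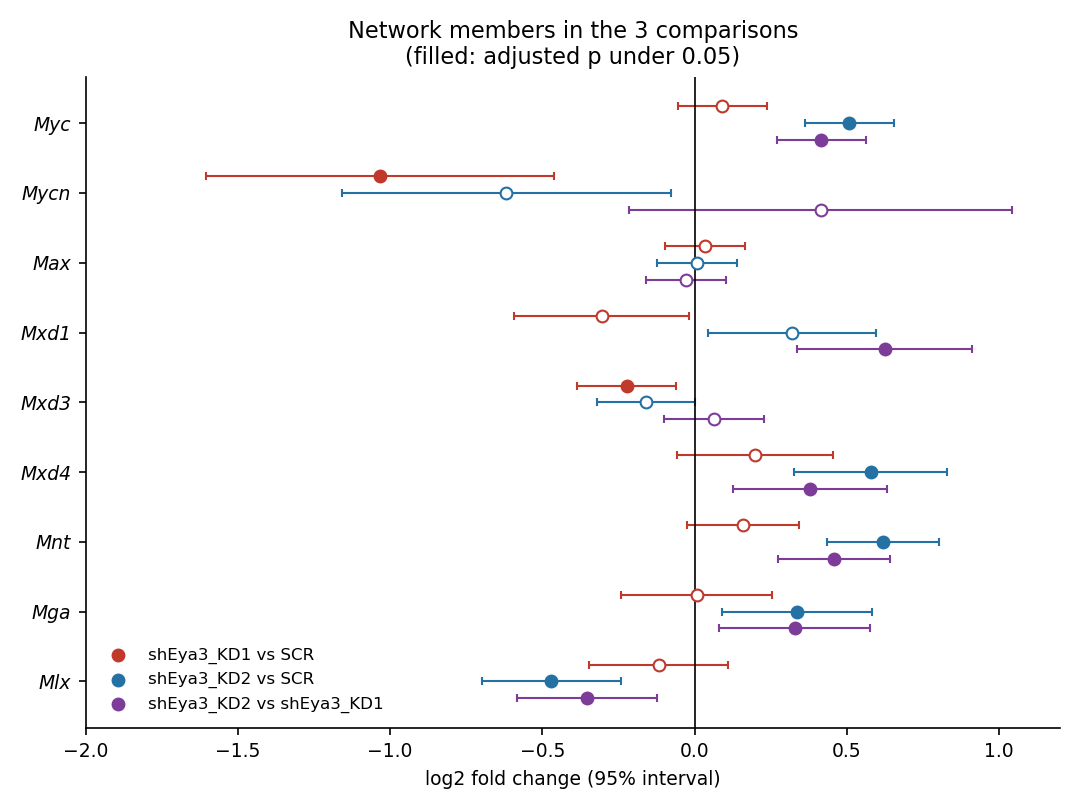
Log2 fold change of each tested member in the 3 comparisons, with 95% intervals; filled points have an adjusted p under 0.05 (edgeR). Against SCR, shEya3_KD1 has filled points for Mycn and Mxd3 and shEya3_KD2 for Myc, Mxd4, Mnt, Mga and Mlx.

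Counted together, 0 of the 9 tested members rose and 2 fell in shEya3_KD1 against SCR, where 24.1% of all genes tested rose and 26.2% fell, 50.3% in either direction. At an unadjusted p under 0.05 in edgeR 0 were higher and Mxd1 joined the 2 that were lower, and DESeq2 and limma-voom also called 0 risen. In shEya3_KD2 4 rose and 1 fell, beside 23% and 22.3% of all genes, 45.3% either way. Between the hairpins 5 were higher in shEya3_KD2 and 1 was lower, beside 27% and 22.5%, 49.6% either way. Both hairpin comparisons use the same SCR libraries, so their member values stand side by side and are not independent. Every library was higher for 0 members and lower for 2 in shEya3_KD1 (28.9% and 30.4% of all genes), higher for 4 and lower for 2 in shEya3_KD2 (27.4% and 27%), and higher for 5 and lower for 1 between the hairpins (29.5% and 24.8%). The median absolute log2 fold change of the members was 0.16 in shEya3_KD1, 0.47 in shEya3_KD2 and 0.38 between the hairpins, beside 0.30, 0.27 and 0.31 for all genes. Against a minimum fold of 1.5 (edgeR's glmTreat) no member was called in any comparison, while 16.3%, 9.15% and 13.1% of all genes were.

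Gene length went with the values, most steeply in shEya3_KD2 replicate 2. With genes split into 5 length classes, the median log2 difference from the SCR mean there ran from -0.24 in the shortest to 0.24 in the longest class. It ran from -0.13 to 0.14 in shEya3_KD2 replicate 1 and from 0.01 to 0.06 in replicate 3. The shortest and longest classes were at -0.02 and 0.10 in shEya3_KD1 replicate 1, 0.10 and 9.65e-05 in replicate 2 and 0.15 and -0.002 in replicate 3. In SCR they were at 0.04 and -0.05 in replicate 1, -0.02 and 0.03 in replicate 2 and -0.01 and 0.02 in replicate 3. Mga, Mxd4 and Mxd1 are in the longest class and Myc, Mxd3 and Mlx in the next to shortest. Genes within 10% of the exon length of Mga (15340 bases) had a median log2 fold change of 0.25 in shEya3_KD2, against 0.34 for Mga. For genes as long as Mxd4 it was 0.15, as Mnt 0.01, as Myc -0.08 and as Mlx -0.07. With each library's length trend removed, an alternative chosen after seeing the data that called 52.8%, 45.8% and 49.9% of all genes in the 3 comparisons, Mga in shEya3_KD2 was 0.07 (edgeR, adjusted p = 0.482) and between the hairpins 0.12 (adjusted p = 0.201). Myc remained at 0.54, Mnt at 0.57, Mxd4 at 0.42 and Mlx at -0.42 against SCR, all past the threshold (edgeR, adjusted p = 1.57e-05, 4.33e-05, 0.00401 and 0.000503). Mxd4 between the hairpins was then 0.25 (adjusted p = 0.0608), and Mxd1 in shEya3_KD1 was -0.32 (adjusted p = 0.0448).

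**Figure D4:**
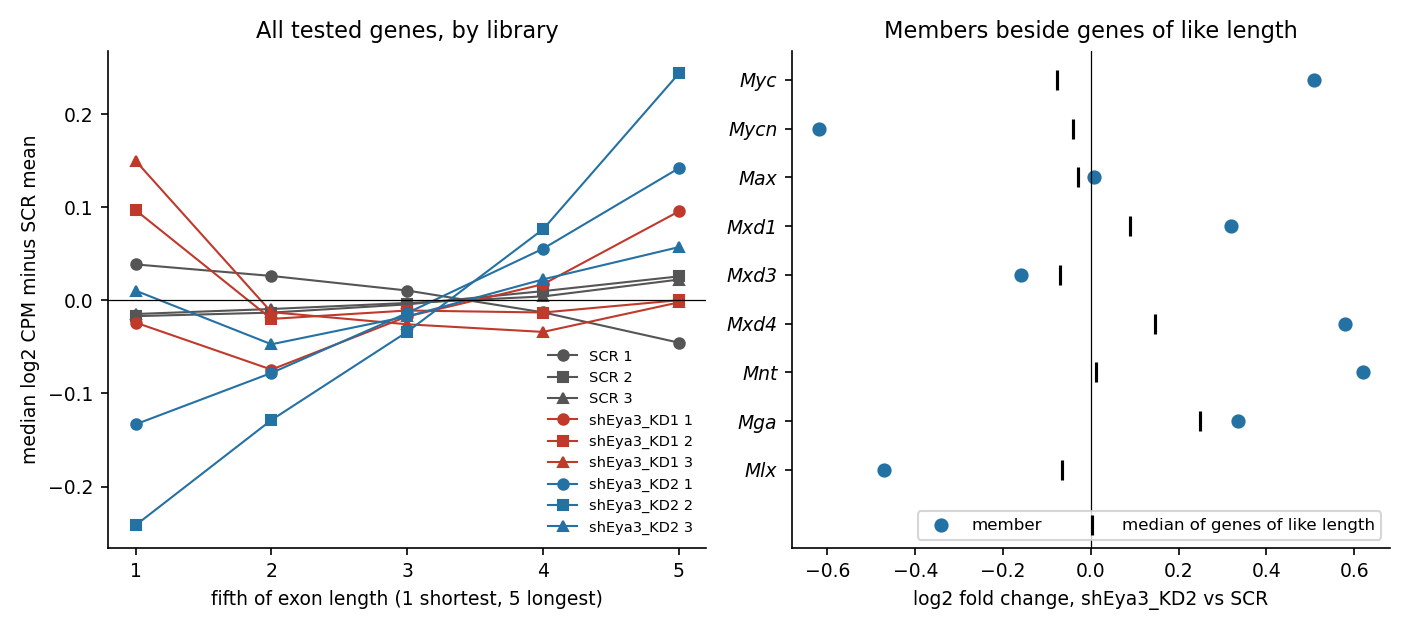
Left, median log2 CPM minus the SCR mean of tested genes in 5 classes of exon length, 1 line per library; right, log2 fold change of each member in shEya3_KD2 against SCR (points) beside the median of genes within 10% of its exon length (ticks). Replicate 2 of shEya3_KD2 has the steepest line, from -0.24 to 0.24, and Mga lies nearer its tick (0.34 and 0.25) than Myc does (0.51 and -0.08).

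Across the 9 libraries the pattern of Myc was most like that of Ldlrad3 (Pearson r of log2 CPM 0.988), Scamp2 (0.987), Eif3c (0.987), Kif23 (0.986) and Strn4 (0.986), the highest of 10245 genes with at least 5 CPM. Among the members, r with Myc was 0.961 for Mnt, 0.866 for Mxd4, 0.748 for Mga, 0.701 for Mxd1, 0.03 for Max, -0.25 for Mycn, -0.38 for Mxd3 and -0.89 for Mlx, and it was -0.23 for Eya3. The points share library depth and group, and no p is given. Eif3c, a subunit of the translation initiation factor eIF3, was at 619 ± 16.3 CPM in SCR, 642 ± 48.6 in shEya3_KD1 and 865 ± 51.2 in shEya3_KD2. Scamp2, a membrane protein of secretory carriers, was at 27.3 ± 0.200, 29.4 ± 3.17 and 41.9 ± 1.19 CPM.

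The network's partners outside the set were few. Of 5 tested relatives 1 rose and 1 fell in shEya3_KD1, beside 24.1% and 26.2% of all genes. In shEya3_KD2 0 relatives passed in edgeR, beside 23% of all genes risen and 22.3% fallen. There Usf1 was lower at an unadjusted p under 0.05 in edgeR, and DESeq2 called 1 relative fallen and limma-voom 0. Mlxip, which encodes MondoA, the partner of Mlx, rose in shEya3_KD1 from 52.3 ± 5.90 to 71.4 ± 6.35 CPM (log2 fold change 0.45 ± 0.10, edgeR, adjusted p = 0.00145) and was at 54.9 ± 5.85 in shEya3_KD2. Usf1, another E-box binder, fell in shEya3_KD1 by 0.20 ± 0.06 (edgeR, adjusted p = 0.0145), a call lost without SCR replicate 1 or shEya3_KD1 replicate 1. Of the 7 tested targets of Mlx and MondoA, 2 rose and 2 fell in shEya3_KD1 and 3 rose and 1 fell in shEya3_KD2. The shares of all genes are those given for the relatives. The shEya3_KD2 counts were 1 to 4 risen and 0 to 1 fallen when 1 library was left out. Txnip, the glucose-responsive inhibitor of thioredoxin, rose with both hairpins, from 55.5 ± 6.20 to 87.8 ± 3.40 and 71.5 ± 9.91 CPM (edgeR, adjusted p = 5.50e-05 and 0.0078). Its paralog Arrdc3 rose in shEya3_KD1 from 9.69 ± 1.08 to 21.03 ± 1.44 CPM and was at 10.8 ± 1.37 in shEya3_KD2. The 2 that fell in shEya3_KD1 encode enzymes of fatty acid synthesis. Fasn, the fatty acid synthase, fell from 1125 ± 138 to 725 ± 98.5 CPM (log2 fold change -0.63 ± 0.12, edgeR, adjusted p = 0.000857) and was at 1311 ± 183 in shEya3_KD2. Acaca, acetyl-CoA carboxylase, named after its values were seen, fell from 249.7 ± 13.1 to 164.8 ± 15.4 CPM (-0.60 ± 0.09, edgeR, adjusted p = 2.97e-05) and was at 291 ± 29.0 in shEya3_KD2, where its libraries overlapped those of SCR (edgeR, adjusted p = 0.0462).

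The list of genes that Myc is known to activate held risen and fallen genes with both hairpins. Of its 42 members 9 rose and 7 fell in shEya3_KD1, where 24.1% of all genes rose and 26.2% fell. In shEya3_KD2, where Myc itself rose, 10 rose and 15 fell, beside 23% and 22.3% of all genes. The list's median log2 fold change was -0.02 and -0.07, beside 0.01 and -0.00438 for all genes. Odc1, the first enzyme of polyamine synthesis and a classic Myc target, fell with both hairpins, from 2752 ± 107 CPM to 722 ± 29.3 in shEya3_KD1 and 1315 ± 73.4 in shEya3_KD2 (log2 fold change -1.93 ± 0.07 and -1.07 ± 0.07; edgeR, adjusted p = 9.62e-12 and 2.17e-08). Pa2g4, a growth-regulated RNA-binding protein, also fell with both, from 701 ± 48.7 to 449 ± 15.7 and 482 ± 42.0 CPM. Phb, a mitochondrial scaffold protein, fell in shEya3_KD2 from 237 ± 9.52 to 150.1 ± 22.7 CPM. In the other direction, Slc3a2, the heavy chain of amino acid transporters, rose in shEya3_KD2 from 202 ± 12.6 to 313 ± 13.8 CPM, and Tert, the catalytic subunit of telomerase, rose with both hairpins from 3.73 ± 0.890 to 5.94 ± 0.684 and 5.51 ± 0.645 CPM. The shEya3_KD2 call of Tert was lost without SCR replicate 1 (0.41, adjusted p = 0.0586). In shEya3_KD2 the risen count was 5 without SCR replicate 1 or shEya3_KD2 replicate 1 and 6 without SCR replicate 2, and with the length trend removed 6 rose and 19 fell.

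Of 13 tested genes that Myc is known to repress, 7 rose and 5 fell in shEya3_KD1, beside 24.1% and 26.2% of all genes. In shEya3_KD2 5 rose and 3 fell, beside 23% and 22.3% of all genes. Thbs1, an inhibitor of angiogenesis, rose from 19.3 ± 2.71 CPM to 383 ± 57.0 in shEya3_KD1 and 135 ± 29.9 in shEya3_KD2. Pdgfrb, a receptor for platelet-derived growth factor and a mesenchymal gene, rose from 0.605 ± 0.145 to 11.8 ± 1.65 and 2.77 ± 0.961 CPM. Ndrg4 fell from 6.78 ± 0.543 to 0.425 ± 0.144 and 2.596 ± 0.185 CPM. These 3 passed with both hairpins (edgeR, adjusted p at most 2.16e-05), and the changes in shEya3_KD1 exceeded those in shEya3_KD2 (adjusted p at most 3.10e-05 between hairpins). Col1a2, a collagen chain gene, rose in shEya3_KD1 from 0.0847 ± 0.0223 to 4.53 ± 0.514 CPM. It was at 0.124 ± 0.0572 CPM in shEya3_KD2, where it did not pass (edgeR, adjusted p = 0.520). Gadd45a (log2 fold change -1.32 in shEya3_KD1 and 0.63 in shEya3_KD2) and Hes1 (0.43 and -0.54), named after their values were seen, passed in opposite directions.

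**Figure D5:**
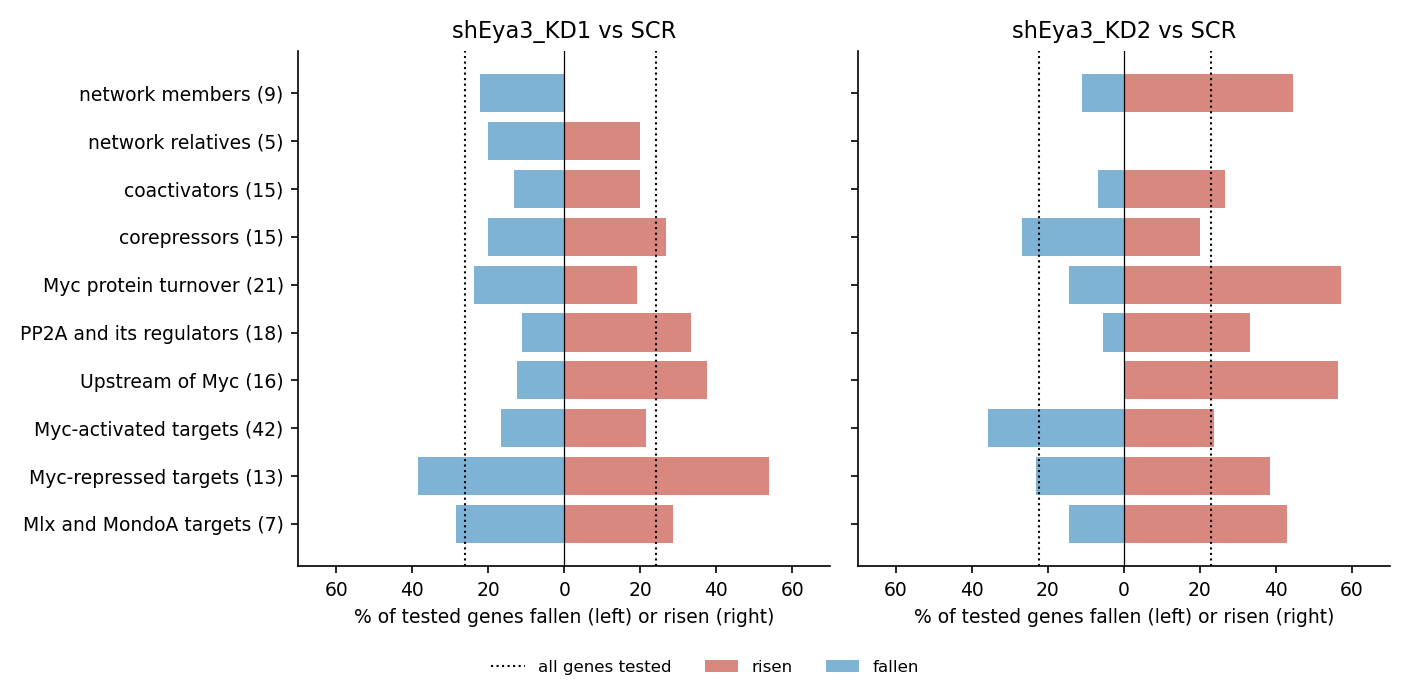
Share of the tested genes of each list that rose (right) or fell (left) against SCR in shEya3_KD1 and shEya3_KD2 (edgeR, adjusted p under 0.05), number tested in parentheses; dotted lines mark all 15914 genes tested (24.1% risen and 26.2% fallen, then 23% and 22.3%). In shEya3_KD2 the members (4 of 9), the turnover list (12 of 21) and the upstream list (9 of 16) extend past the line on the risen side. So do all other lists except the corepressors (3 of 15) and the network relatives (0 of 5).

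Among 21 tested genes of Myc protein turnover, 4 rose and 5 fell in shEya3_KD1, beside 24.1% and 26.2% of all genes. In shEya3_KD2 12 rose and 3 fell, beside 23% and 22.3% of all genes. The fallen count in shEya3_KD1 was 3 without SCR replicate 1 and 2 without shEya3_KD1 replicate 2. Fbxw7, the ligase subunit that recognises phosphorylated Myc, did not pass with either hairpin, at 43.1 ± 1.89, 41.3 ± 3.65 and 44.9 ± 3.42 CPM. Usp28, a deubiquitinase of Myc, rose with both, from 15.2 ± 0.937 to 20.3 ± 0.0485 and 19.1 ± 1.82 CPM. Mapk3, the kinase ERK1, rose in shEya3_KD2 from 136 ± 1.96 to 198 ± 8.996 CPM and was at 127 ± 10.1 in shEya3_KD1. Huwe1, a ligase of Myc encoded by a very long transcript, rose in shEya3_KD2 from 556 ± 78.3 to 807 ± 214 CPM (edgeR, adjusted p = 0.0275), with libraries that overlapped those of SCR. That call was lost without SCR replicate 1, SCR replicate 2, shEya3_KD1 replicate 1 or shEya3_KD2 replicate 2 (log2 fold change 0.32 to 0.70 and adjusted p up to 0.0972 when 1 library was left out), with the replicate number as a block and with the length trend removed.

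Among 18 tested genes of PP2A, the phosphatase that removes the stabilising phosphate of Myc, 6 rose and 2 fell in shEya3_KD1 and 6 rose and 1 fell in shEya3_KD2. Of all genes, 24.1% rose and 26.2% fell in shEya3_KD1 and 23% and 22.3% in shEya3_KD2. Ppp2r2a, the B55-alpha subunit, did not pass against SCR, at 166 ± 2.12, 181 ± 5.48 and 160.5 ± 6.39 CPM. Ppp2r5c, a B56 subunit, rose with both hairpins, from 131 ± 3.44 to 210.4 ± 4.68 and 258 ± 3.40 CPM. Ppp2r1a, the scaffold subunit, rose with both, from 244 ± 6.72 to 369 ± 26.6 and 288 ± 13.8 CPM; the shEya3_KD2 call was lost without SCR replicate 2 or shEya3_KD2 replicate 1 (adjusted p up to 0.0734). Ppp2r5b fell in shEya3_KD1 from 38.2 ± 0.917 to 20.3 ± 2.64 CPM and was at 35.5 ± 1.26 in shEya3_KD2. The other gene that fell in shEya3_KD1 was Ppp2r5a, named after its values were seen. It went from 169 ± 3.34 to 122 ± 5.78 CPM (edgeR, adjusted p = 1.95e-05) and was at 163 ± 7.93 in shEya3_KD2 (adjusted p = 0.490). In shEya3_KD2 3 rose without SCR replicate 2 or shEya3_KD2 replicate 1, the fallen count was 0 to 2 when 1 library was left out, and with the length trend removed 6 rose and 5 fell.

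The cofactor lists moved in both directions. For comparison, 24.1% of all genes rose and 26.2% fell in shEya3_KD1, and 23% and 22.3% in shEya3_KD2. Of 15 coactivators 3 rose and 2 fell in shEya3_KD1 and 4 rose and 1 fell in shEya3_KD2, where the acetyltransferase genes Kat2a and Crebbp rose by 0.44 ± 0.07 and 0.65 ± 0.15 and Actl6a, a subunit of chromatin remodellers, fell by 0.78 ± 0.08 on the log2 scale. Paf1, of the elongation complex of that name, fell in shEya3_KD1 from 104 ± 2.49 to 63.6 ± 1.96 CPM. Leaving out 1 library gave 1 to 4 risen and 1 to 2 fallen coactivators in shEya3_KD1 and 2 (without shEya3_KD2 replicate 1) to 8 (without its replicate 3) risen in shEya3_KD2. Of 15 corepressors 4 rose and 3 fell in shEya3_KD1 and 3 rose and 4 fell in shEya3_KD2, where 6 rose without replicate 3. Hdac1 and Suds3, of the Sin3 complex that Mxd proteins and Mnt recruit, fell with both hairpins (-0.37 ± 0.06 and -0.28 ± 0.06 for Hdac1, -0.35 ± 0.07 and -0.48 ± 0.07 for Suds3). Other Sin3 complex genes of the list, named after their values were seen, did not all move alike. Sap18 also fell with both hairpins. Sap30 rose in shEya3_KD1 (0.34 ± 0.06, edgeR, adjusted p = 0.000336) and Sin3a in shEya3_KD2 (0.42 ± 0.07, adjusted p = 0.000299). Hdac2, Sin3b, Rbbp4 and Rbbp7 passed with neither hairpin. Dnmt3a, a DNA methyltransferase, rose with both, from 17.3 ± 2.21 to 28.96 ± 2.26 and 32.2 ± 6.06 CPM (edgeR, adjusted p = 0.000279 and 0.000103). Ncor1, a nuclear receptor corepressor, rose in shEya3_KD2 from 179 ± 15.9 to 258 ± 38.0 CPM (edgeR, adjusted p = 0.00105) and was at 198 ± 18.5 in shEya3_KD1. E2f6, a partner of Mga and Max in a Polycomb-type complex, rose in shEya3_KD1 by 0.34 ± 0.07 and fell in shEya3_KD2 by 0.49 ± 0.07 (edgeR, adjusted p = 0.000884 and 5.80e-05).

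Of 16 tested genes upstream of Myc, 6 rose and 2 fell in shEya3_KD1, beside 24.1% and 26.2% of all genes. In shEya3_KD2 9 rose and 0 fell, beside 23% and 22.3% of all genes. Also at an unadjusted p under 0.05 in edgeR 0 were lower in shEya3_KD2, and DESeq2 and limma-voom called 0 fallen; 1 fell without shEya3_KD2 replicate 3, and with the length trend removed 6 rose and 1 fell. The fallen count in shEya3_KD1 was 1 without its replicate 2 or 3. Notch1, a receptor whose activated form induces Myc, rose from 0.510 ± 0.0969 CPM to 7.19 ± 0.966 and 10.0 ± 3.90 (log2 fold change 3.81 ± 0.32 and 4.26 ± 0.32). Tcf7l2, a nuclear partner of beta-catenin, rose from 4.87 ± 0.363 to 9.47 ± 1.17 and 7.33 ± 0.848 CPM. Its relative Tcf7 rose in shEya3_KD2 from 0.818 ± 0.0127 to 2.95 ± 0.834 CPM and was at 0.550 ± 0.179 in shEya3_KD1. Igf2bp1, which binds and stabilises Myc messenger RNA, fell in shEya3_KD1 from 152 ± 2.25 to 92.5 ± 4.38 CPM and was at 141 ± 8.94 in shEya3_KD2. Pvt1, the long noncoding gene next to Myc, rose in shEya3_KD1 from 6.34 ± 0.940 to 8.47 ± 0.745 CPM (edgeR, adjusted p = 0.00653) and was at 7.05 ± 0.235 in shEya3_KD2.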

How the data were processed

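Messenger RNA libraries of 9 cultures, made with a NuGEN kit per the labels' protocols, were compared. The submitters' processing notes list FastQC, MultiQC, STAR and mm10. For the counting tool, its annotation and strand use, the sources used here give nothing. The authors deposited raw read counts per gene symbol, used as deposited. Coordinates and exon lengths came from GENCODE M21 (55341 of 55418 symbols matched).

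All 9 libraries entered 1 fit in edgeR 4.0.16 (R 4.3.3): filterByExpr, TMM factors, group as the only term, robust quasi-likelihood test, Benjamini-Hochberg adjustment over 15914 genes, threshold 0.05. The fit was tested on simulated data. Standard errors were taken from fold change and F. An exact permutation test of 3 against 3 libraries has a smallest p of 0.1.

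Members and lists were chosen with earlier results of these data known. Named genes were all members, Eya3, up to 6 genes per list with the largest fold changes past the threshold (3 per hairpin), Fbxw7, Ppp2r2a, Pvt1 and Odc1, and the 5 genes most like Myc; 1 gene of the turnover list is not reported here. Alternatives were RLE factors, DESeq2 1.42.0, limma-voom (limma 3.58.1), no filter, 5 CPM in 3 libraries, only the groups compared, a replicate block, glmTreat at 1.5-fold, each library left out and, for levels per kilobase, the longest transcript. Removing trends with length, or length and GC, was chosen after seeing the data. Replicates differed by more than counting noise (chi-square over degrees of freedom 9.24 to 45.2), so none was counted as a repeat.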

Additional observations from a re-analysis of the deposited data

Results flagged for a closer look

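For 6 members the response to the 2 hairpins differed, by edgeR's test of shEya3_KD2 against shEya3_KD1. The log2 difference was 0.42 for Myc, 0.62 for Mxd1, 0.38 for Mxd4, 0.46 for Mnt and 0.33 for Mga, all higher in shEya3_KD2, and -0.35 for Mlx, lower there. Between the same groups 49.6% of all genes tested differed.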

How the results depend on the processing

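Over the tested members, comparisons and alternatives, 444 values kept their direction and side of the threshold, 35 were no longer past it, 13 newly passed it and 15 changed sign. With a minimum fold of 1.5 (glmTreat) the counts were 0 fallen in shEya3_KD1, 0 risen and 0 fallen in shEya3_KD2, and 0 higher and 0 lower between hairpins, since that test asks for a larger change. The 5 CPM filter, which leaves out Mycn and Mxd1, gave 1 fallen in shEya3_KD1 and 2 in shEya3_KD2. With the length trend removed 3 members were higher between hairpins. With the length and GC trends removed, 1 rose in shEya3_KD1 (Mnt, 0.22, adjusted p = 0.00316), 3 fell in shEya3_KD2 (Mlx, Mycn and Mxd3) and 3 were higher between hairpins. Leaving out 1 library gave 0 to 0 risen and 1 to 2 fallen in shEya3_KD1, 3 to 5 risen and 1 to 2 fallen in shEya3_KD2, and 3 to 5 higher and 0 to 1 lower between hairpins. The cause of these moves was not tested.

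Among the tested members and the alternatives run, sign changes were confined to differences near 0 in Mga and Max. Mga in shEya3_KD1 ran from -0.0566 to 0.0452 when 1 library was left out, below 0 without SCR replicate 1, shEya3_KD1 replicate 1 or 3 or shEya3_KD2 replicate 1. It was -0.0525 with the length trend removed and -0.0684 with length and GC removed. Max in shEya3_KD2 was -0.00437 with RLE factors, -0.00363 in DESeq2, -0.0262 under the 5 CPM filter, -0.00339 with the length trend removed and -0.00814 with length and GC removed, and it ran from -0.0244 to 0.0393 when 1 library was left out. Max between hairpins ran from -0.0489 to 0.00489 when 1 library was left out.

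Same-numbered libraries were not alike throughout: their deviations from the group mean correlated at over 0.1 in 4 of 9 pairs (r -0.42 to 0.61). Pairs with different numbers ran from -0.67 to 0.57. Deviations within a group of 3 offset each other, so this check cannot exclude pairing. With the replicate block, 0 rose and 2 fell in shEya3_KD1, 4 rose and 1 fell in shEya3_KD2, and 5 were higher and 1 lower between hairpins, with no member's call changed.

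List counts against SCR moved by over 1.5 times, apart from glmTreat and left-out libraries, in shEya3_KD2: risen coactivators from 4 to 8 without a filter, fallen coactivators from 1 to 2 with the 5 CPM filter and 3 with length and GC removed, risen corepressors from 3 to 6 with length and GC removed, and fallen relatives from 0 to 1 in DESeq2, with the 5 CPM filter or with length and GC removed. Fallen PP2A genes went from 1 to 0 without a filter, 5 with length removed and 6 with length and GC removed. Risen Myc-activated genes went from 10 to 6 with length removed, risen Mlx targets from 3 to 1 with either trend removed, fallen Mlx targets from 1 to 0 with the 5 CPM filter, and fallen upstream genes from 0 to 1 and 2 with the trends removed. Mycl was too low to test.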
